A study of Homo sapiens with 12 samples.

Results

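The minichromosome maintenance (MCM) helicase family was followed as 9 genes, MCM2 to MCM10, chosen by symbol from the 57500 genes of the deposited count matrix. All 9 passed the filter on low counts and were among the 15805 genes tested, and the lowest count of any of them in any library was 67 reads, for MCM10. The cells were OE33, an established human esophageal adenocarcinoma line, measured by sequencing of polyadenylated RNA in 4 groups of 3 libraries that the series describes as independent biological replicates. The shAPE1 cells carried a stable hairpin against APE1 (gene APEX1), the endonuclease that cuts DNA at sites without a base. The shCtrl cells carried a non-targeting hairpin. Both lines were made from rABS cells, the survivors of 15 days in which OE33 met bile salts at 200 µM and pH 5.5 for 20 minutes a day. Parental cells were untreated OE33. A mock-exposed group was not analysed here, so exposure and time in culture cannot be told apart between rABS and Parental, and the hairpin effect rests on 1 hairpin sequence.

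Library totals ran from 15736087 to 23010377 counts, and levels are given as CPM, counts scaled to a common library size. APEX1 averaged 4.93 CPM in shAPE1, 59.8 CPM in shCtrl, 82.1 CPM in rABS and 54.7 CPM in Parental cells. The shAPE1 level was 8.2% of the shCtrl level (edgeR adjusted p = 3.75e-22). All 6 epithelial markers were present in each group, and their summed level was 10770 to 11610 CPM in shAPE1, 12080 to 13330 CPM in shCtrl, 12340 to 14690 CPM in rABS and 14510 to 18020 CPM in Parental cells. That sum did not overlap between shAPE1 and shCtrl, but its genes did not move as one. KRT19, the largest part of it, was at 5909 CPM in shAPE1 and 7189 CPM in shCtrl cells, whereas CDH1 was at 838.3 CPM in shAPE1 and 653.3 CPM in shCtrl cells. KRT8 ran against the sum in the survivors, at 1952 CPM in rABS and 879.3 CPM in Parental cells. The part of these markers in the MCM results was not tested. Markers of fibroblasts summed to at most 29.4 CPM, of leukocytes to at most 4.33 CPM and of endothelium to at most 0.889 CPM in any library.

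MCM2 to MCM7 form the ring-shaped hexamer that is loaded in pairs onto replication origins before S phase and that, once joined by CDC45 and GINS, unwinds DNA at the fork. MCM8 and MCM9 form a separate helicase that works in homologous recombination and crosslink repair. MCM10 shares the name but not the helicase fold, and helps to switch the loaded ring into an active one. Genes of the hexamer are classical targets of E2F transcription factors, and their transcripts are high in proliferating epithelia and carcinomas and low in resting cells.

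Promoter sequences of the members were searched for the E2F-type words TTTCCCGC, TTTGGCGC, TTTCGCGC and TTTGCCGC on both strands, because most of the family moved together and MCM9 did not. Windows of 300 bases from RefSeq on GRCh38.p14 were used, from 250 bases before to 50 bases after a gene's start, and 3.31% of all 35116 windows held such a word. The window of MCM6 held 4 matches in 2 overlapping pairs. Windows of MCM2 and MCM3 and the first of 3 windows of MCM7 held 2 matches each, and that of MCM8 held 1. No E2F-type match was found in the windows of MCM10 and MCM9, or in the other 2 windows of MCM7. The words CCAAT and GGGCGG (SP1-type) were also searched, and 34.6% and 45% of all windows held them. The MCM10 window held 2 CCAAT and 1 GGGCGG, and the MCM9 window held 1 CCAAT and 5 GGGCGG. MCM4 and MCM5 were not searched. The 250 bases before the start of MCM6, MCM10 and MCM9 are printed with E2F-type words in capitals. MCM6 and MCM10 were chosen because they had, with MCM2, the largest rises in rABS over Parental but differed in E2F-type matches. MCM9 was chosen because it did not pass the test in rABS against Parental. The printed stretches lie at chr2:135876444-135876693 on the minus strand, chr10:13161308-13161557 on the plus strand and chr6:118935160-118935409 on the minus strand. The MCM2 word lies just after the RefSeq start, and 30 bases around it are shown, at chr3:127598404-127598433 on the plus strand. That start lies downstream of the gene start at 127598223 given below. A match is a description of the letters and not of factor binding, and a window without one says only that these letters are not in it.
MCM6: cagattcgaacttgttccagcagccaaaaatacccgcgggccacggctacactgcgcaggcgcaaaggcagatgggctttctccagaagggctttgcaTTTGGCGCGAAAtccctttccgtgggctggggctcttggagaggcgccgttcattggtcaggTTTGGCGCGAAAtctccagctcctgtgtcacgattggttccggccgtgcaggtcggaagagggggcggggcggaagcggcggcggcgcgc
MCM2: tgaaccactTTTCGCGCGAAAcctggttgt
MCM10: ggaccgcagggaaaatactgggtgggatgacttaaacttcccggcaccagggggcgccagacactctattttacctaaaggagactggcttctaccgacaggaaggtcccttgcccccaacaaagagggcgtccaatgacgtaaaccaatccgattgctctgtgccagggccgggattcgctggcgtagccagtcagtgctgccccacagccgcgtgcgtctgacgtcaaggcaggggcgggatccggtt
MCM9: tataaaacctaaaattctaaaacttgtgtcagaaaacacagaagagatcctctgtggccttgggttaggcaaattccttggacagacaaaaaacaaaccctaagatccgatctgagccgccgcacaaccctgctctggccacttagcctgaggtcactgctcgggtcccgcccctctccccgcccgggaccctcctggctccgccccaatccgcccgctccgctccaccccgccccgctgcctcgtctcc

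Survivors of repeated acidified bile held far more MCM transcript than untreated cells. With rABS set against Parental, 8 of the 9 members rose and MCM9 was the exception, at 14.6 ± 0.587 CPM in rABS and 14.9 ± 1.51 CPM in Parental cells (SD, n = 3 each). A gene was called where its Benjamini-Hochberg adjusted p in edgeR's quasi-likelihood test was below 0.05. By that rule 59.8% of all tested genes were called, 29.9% higher and 29.9% lower in rABS, and 63.1% had no overlap between these groups. The members' median log2 fold change was 2.35, beside -0.01 over all genes tested. In bulk RNA, a difference in the share of cycling cells and a difference in MCM RNA per cell cannot be told apart, in this comparison as in the others.

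**Figure D1:**
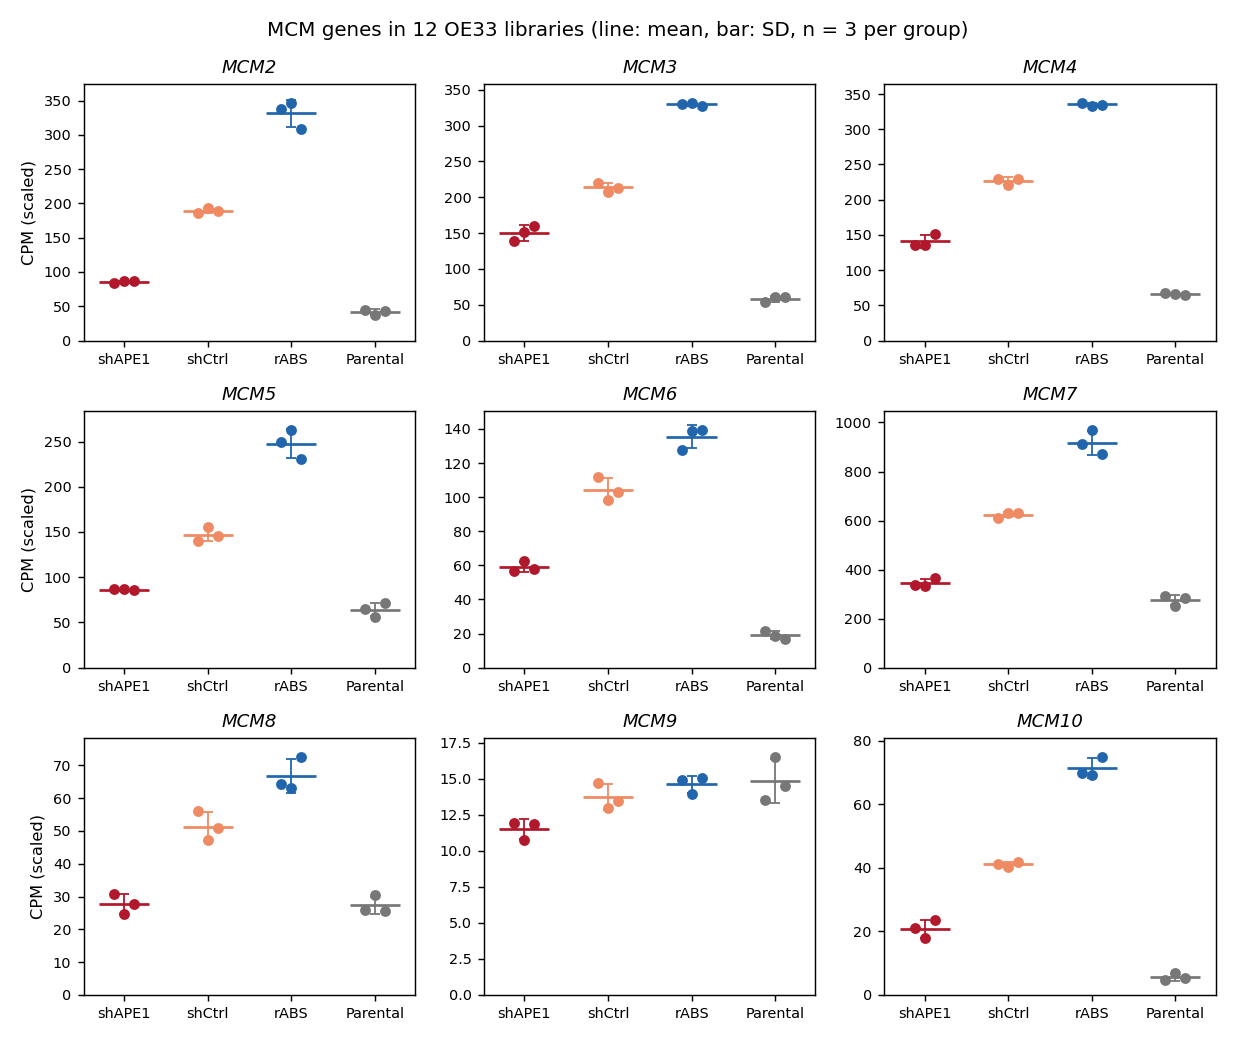
CPM of the 9 MCM genes in each of the 12 libraries, with 1 panel per gene and its own axis from 0; points are libraries, lines are group means and bars are SD (n = 3). MCM2 to MCM7 and MCM10 are highest in rABS and lowest in Parental cells, while MCM9 stays between 10.7 and 16.5 CPM in all 12 libraries.

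MCM2, a hexamer subunit that also holds histones H3 and H4 at the fork, stood at 83.3, 86.4 and 86.5 CPM in shAPE1, 185.6, 192.9 and 188.9 CPM in shCtrl, 338.3, 347.0 and 308.3 CPM in rABS and 44.9, 37.3 and 42.8 CPM in Parental cells (chromosome 3, 127598223 to 127622436, plus strand, GRCh38). No library of one group overlapped with those of another. The log2 fold change of rABS over Parental was 2.99 ± 0.08 (standard error; edgeR adjusted p = 7.89e-25).
MCM6, which sits beside MCM2 in the ring, had 56.9, 62.4 and 57.9 CPM in shAPE1, 111.9, 98.1 and 103.0 CPM in shCtrl, 127.6, 139.0 and 139.5 CPM in rABS and 21.5, 18.4 and 16.8 CPM in Parental cells (chromosome 2, 135839626 to 135876426, minus strand). Its groups were also fully apart, with the shCtrl libraries nearer to rABS than to shAPE1. The rise in rABS was 7.19-fold, with a log2 fold change of 2.85 ± 0.09 (edgeR adjusted p = 8.47e-23).

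MCM3, which in yeast contacts the origin complex as the ring is loaded, was at 138.4, 152.1 and 160.5 CPM in shAPE1, 220.2, 207.6 and 213.4 CPM in shCtrl, 330.0, 331.9 and 327.9 CPM in rABS and 53.2, 60.5 and 60.0 CPM in Parental cells (chromosome 6, 52264009 to 52284881, minus strand). MCM4, a subunit phosphorylated by CDC7 kinase at origin firing, was at 135.3, 135.2 and 151.4 CPM in shAPE1, 230.0, 220.7 and 229.6 CPM in shCtrl, 337.8, 333.1 and 335.0 CPM in rABS and 67.0, 66.1 and 64.0 CPM in Parental cells (chromosome 8, 47960185 to 47978160, plus strand). Both genes had 4 separate levels, and their rABS libraries differed among themselves by only a few CPM. The log2 fold change of rABS over Parental was 2.51 ± 0.07 for MCM3 and 2.35 ± 0.07 for MCM4 (edgeR adjusted p = 1.73e-23 for each).

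The remaining subunits had the smallest rises within the hexamer. MCM5, which lines the gate of the ring with MCM2, had 86.7, 86.5 and 85.4 CPM in shAPE1, 140.5, 155.2 and 145.8 CPM in shCtrl, 249.4, 262.9 and 230.4 CPM in rABS and 65.0, 56.5 and 71.2 CPM in Parental cells (chromosome 22, 35400063 to 35425430, plus strand). MCM7, which forms the catalytic core with MCM4 and MCM6, had 338.4, 333.2 and 365.0 CPM in shAPE1, 612.0, 631.4 and 629.0 CPM in shCtrl, 911.8, 970.0 and 872.4 CPM in rABS and 290.9, 250.8 and 284.9 CPM in Parental cells (chromosome 7, 100092728 to 100101940, minus strand). The shAPE1 and Parental libraries did not overlap for either gene. MCM5 rose 3.86-fold in rABS over Parental and MCM7 rose 3.33-fold, with edgeR adjusted p of 4.93e-20 and 3.96e-20.

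MCM10 had the largest relative rise of the family. Its level was 20.9, 17.9 and 23.7 CPM in shAPE1, 41.1, 40.4 and 42.0 CPM in shCtrl, 70.0, 69.4 and 74.9 CPM in rABS and 4.64, 6.74 and 5.19 CPM in Parental cells (chromosome 10, 13161554 to 13211104, plus strand). The Parental values rested on 67, 144 and 88 counts, fewer than for any other member, and the groups did not overlap. The log2 fold change of rABS over Parental was 3.67 ± 0.12, or 12.7-fold (edgeR adjusted p = 2.44e-22).

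The MCM8 and MCM9 pair, which acts together as a protein complex, did not move together as transcripts. MCM8 had 30.9, 24.8 and 27.6 CPM in shAPE1, 56.0, 47.1 and 50.8 CPM in shCtrl, 64.3, 63.0 and 72.6 CPM in rABS and 25.9, 30.3 and 25.5 CPM in Parental cells (chromosome 20, 5950652 to 5998977, plus strand). MCM9 had 11.9, 10.7 and 11.9 CPM in shAPE1, 14.7, 13.0 and 13.4 CPM in shCtrl, 14.9, 14.0 and 15.0 CPM in rABS and 13.6, 16.5 and 14.5 CPM in Parental cells (chromosome 6, 118813442 to 118935162, minus strand). The shAPE1 and Parental libraries overlapped for MCM8, and the shCtrl, rABS and Parental libraries overlapped for MCM9. In rABS over Parental, MCM8 rose 2.44-fold (edgeR adjusted p = 3.82e-13) and the log2 fold change of MCM9 was -0.03 ± 0.12 (edgeR adjusted p = 0.854). Per kilobase of exon, the ratio of MCM8 to MCM9 was 3.91 ± 0.253 in shAPE1, 6.07 ± 0.149 in shCtrl, 7.39 ± 0.425 in rABS and 2.98 ± 0.124 in Parental cells (SD, n = 3 each). These ratios did not overlap between any pair of groups, which 3 against 3 libraries can rank only to a two-sided exact permutation p of 0.1. With the length of the principal transcript in place of all exons, the ratio was 1.64 in shAPE1, 2.55 in shCtrl, 3.1 in rABS and 1.25 in Parental cells.

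Depletion of APE1 in the survivors was accompanied by lower MCM transcripts. In shAPE1 against shCtrl, 8 of 9 members fell, where 36.6% of all tested genes were called, 18.8% lower and 17.8% higher. Their median log2 fold change was -0.82, beside -0.02 over all genes. MCM2 fell most, at 45.1% of its shCtrl level (log2 fold change -1.15 ± 0.07; edgeR adjusted p = 3.55e-14), and MCM3 fell least of the 8, at 70.3% (-0.51 ± 0.07; edgeR adjusted p = 4e-07). MCM10 was at 50.6% (-0.98 ± 0.10) and MCM8 at 54.2% (-0.88 ± 0.10), each with an edgeR adjusted p of 7.97e-09 or lower. The rest of the hexamer lay in a narrow band, with MCM7 at 55.4%, MCM6 at 56.6%, MCM5 at 58.6% and MCM4 at 62.0% of shCtrl. MCM9 was at 84.1% of its shCtrl level without overlap between the groups, but did not pass the test (-0.25 ± 0.12; edgeR adjusted p = 0.0963). Absence of overlap was itself frequent, at 46.9% of all tested genes in this comparison. Loss of APE1 and any other difference between the shAPE1 and shCtrl lines cannot be told apart here.

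Cells with the control hairpin also held less MCM transcript than the untransduced survivors they came from. In shCtrl against rABS, 8 of 9 members fell, where 36.5% of tested genes were called, 18.6% lower and 17.9% higher. The 8 had no overlap between the groups, as had 48.4% of tested genes, and the members' median log2 fold change was -0.56 beside 0.02 over all genes. MCM2 was at 57.1% (log2 fold change -0.81 ± 0.07), MCM10 at 57.6% (-0.80 ± 0.10) and MCM5 at 59.5% (-0.75 ± 0.07) of the rABS level. The smallest falls that passed were those of MCM6 at 77.0% (edgeR adjusted p = 0.000256) and MCM8 at 76.9% (edgeR adjusted p = 0.00154). MCM9 was at 93.6% of rABS with overlapping libraries (edgeR adjusted p = 0.547). Transduction, selection for the hairpin vector and added time in culture cannot be told apart in this comparison.

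**Figure D2:**
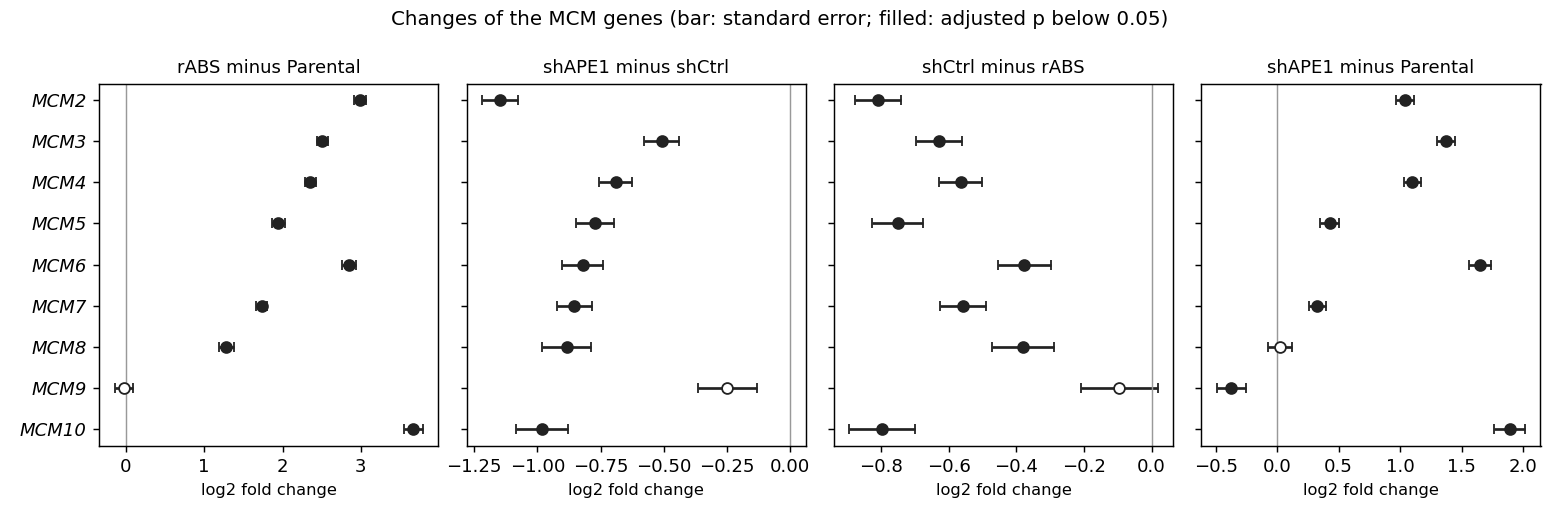
Log2 fold changes of the 9 MCM genes in 4 comparisons from edgeR, each with its own horizontal axis; bars are standard errors and open points did not pass an adjusted p of 0.05. MCM9 is the open point in 3 panels and lies at -0.37 in shAPE1 minus Parental, where MCM8 is the open point at 0.02.

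Most of the family stayed above the untreated level in both hairpin lines. In shCtrl against Parental, 8 of 9 members were higher, where 53.1% of tested genes were called, 27% higher and 26.1% lower, and 58.6% had no overlap. Log2 fold changes there were 2.87 for MCM10, 2.47 for MCM6, 2.19 for MCM2, 1.88 for MCM3, 1.79 for MCM4, 1.20 for MCM5, 1.18 for MCM7 and 0.91 for MCM8. In shAPE1 against Parental, 7 members were higher and 1 was lower, where 53.7% of tested genes were called, 26.2% higher and 27.5% lower, and 57.2% had no overlap. MCM10 was still 3.71-fold and MCM6 3.13-fold above Parental, whereas MCM5 was 1.34-fold (log2 fold change 0.43 ± 0.08) and MCM7 1.25-fold above it (0.33 ± 0.07; edgeR adjusted p = 0.000128). MCM8 averaged 27.8 ± 3.04 CPM in shAPE1 and 27.3 ± 2.65 CPM in Parental cells (SD, n = 3 each), a log2 difference of 0.02 ± 0.10. MCM9 was lower in shAPE1, at 77.2% of Parental (log2 fold change -0.37 ± 0.12; edgeR adjusted p = 0.0079), but without Parental replicate 2 it was -0.29 with an adjusted p of 0.067. The comparisons against Parental share those 3 libraries, and those of shCtrl share the shCtrl libraries, so their values stand side by side and are not independent of each other.

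The hexamer genes did not change in equal proportion, although their proteins join in equal number. The summed level of MCM2 to MCM7 was 867.2 ± 35.3 CPM in shAPE1, 1505 ± 4.88 CPM in shCtrl, 2297 ± 85.3 CPM in rABS and 524.0 ± 29.8 CPM in Parental cells (SD, n = 3 each). Shares were taken of the summed counts per kilobase of exon of these genes, a different total from the CPM sum. MCM7 made up 42.9 ± 0.929% of that total in shAPE1, 44.8 ± 0.739% in shCtrl, 43.4 ± 0.731% in rABS and 57.1 ± 1.43% in Parental cells. Parental libraries, at 55.5% to 58.3%, lay above all others. MCM2 took 9.49 ± 0.278% in shAPE1, 12.2 ± 0.245% in shCtrl, 14.0 ± 0.432% in rABS and 7.72 ± 0.331% in Parental cells, with no overlap between any pair of groups. MCM3 took 22.4 ± 0.863% in shAPE1, 18.5 ± 0.542% in shCtrl, 18.8 ± 0.573% in rABS and 14.5 ± 1.64% in Parental cells. Its shAPE1 libraries were the highest of the 12, while shCtrl and rABS overlapped. Shares of MCM5 and MCM6 overlapped between shAPE1 and shCtrl, at 6.41% and 6.32% for MCM5 and at 7.82% and 7.98% for MCM6. For shares that did not overlap, the two-sided exact permutation p was 0.1, the smallest that 3 against 3 libraries allow. In the hairpin lines, the order of MCM5 and MCM6 depended on the length used. With the longest transcript, MCM5 took 7.49% and MCM6 6.31% of the sum in shAPE1 cells. In rABS and Parental cells, MCM5 was above MCM6 with each length.

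**Figure D3:**
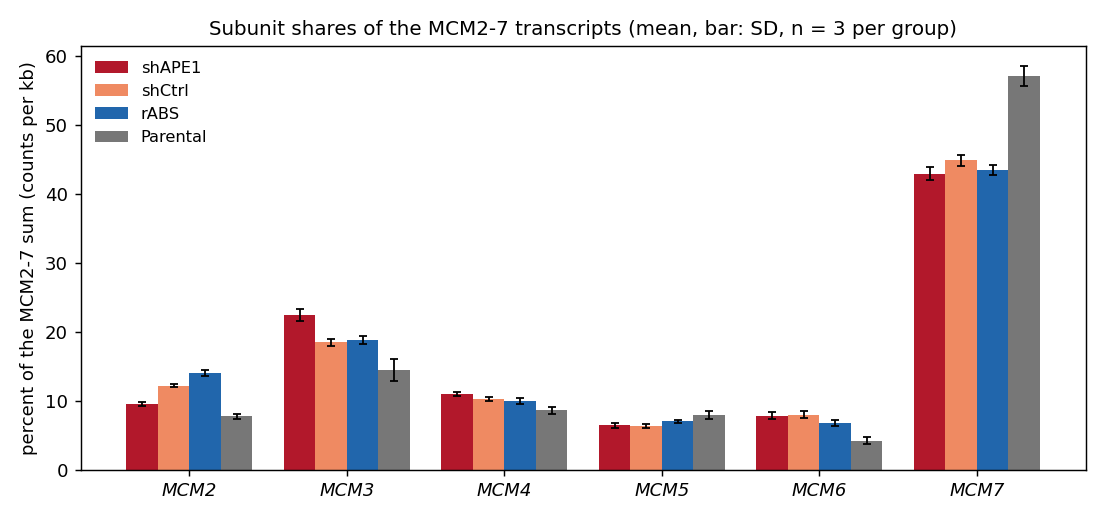
Percent of the summed MCM2 to MCM7 counts per kilobase of exon taken by each subunit gene in shAPE1, shCtrl, rABS and Parental cells; bars are means and error bars SD (n = 3). MCM7 takes 57.1% in Parental cells and 42.9% to 44.8% in the other groups, and MCM2 runs between 7.72% in Parental and 14.0% in rABS cells.

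Set against PCNA, the sliding clamp of the fork, the subunits also differed in direction. The CPM ratio of MCM2 to PCNA was 0.658 ± 0.0559 in shAPE1, 0.658 ± 0.0183 in shCtrl, 0.730 ± 0.0504 in rABS and 0.518 ± 0.0589 in Parental cells. For MCM3 it was 1.16 ± 0.137 in shAPE1, 0.744 ± 0.0224 in shCtrl, 0.727 ± 0.0117 in rABS and 0.719 ± 0.0398 in Parental cells. Relative to PCNA, MCM7, MCM5 and MCM4 were lower in rABS than in Parental cells without overlap. Ratios were 2.02 ± 0.115 in rABS and 3.43 ± 0.335 in Parental cells for MCM7. For MCM5 they were 0.545 ± 0.0388 in rABS and 0.799 ± 0.103 in Parental cells. For MCM4 they were 0.739 ± 0.0144 in rABS and 0.816 ± 0.0275 in Parental cells. The ratios of MCM2 and MCM6 were higher in rABS than in Parental cells without overlap, and those of MCM3 overlapped. MCM2 and PCNA stood in overlapping ratios in the hairpin lines, and MCM3 stood higher relative to PCNA in shAPE1 than in shCtrl without overlap. The ratios of MCM4, MCM5, MCM6 and MCM7 were likewise higher in shAPE1 than in shCtrl, by 0.45, 0.37, 0.32 and 0.29 on the log2 scale.

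The word TGCATTC was searched in the 3′ untranslated regions, with its neighbours GCATTCT (shifted forward by 1 base) and, shifted back, CTGCATT, and MCM2 was the only member that held any of them. These words had been found from the fold changes of the same libraries, so their presence is a description and no independent support. The MCM2 site lies at chr3:127622370-127622396 on the plus strand, and the APEX1 transcript holds the same word at chr14:20457580-20457606 on the plus strand, with the shared word in capitals.
MCM2 site: ctcttatttgTGCATTCggtttggttt
APEX1 site: cagagaaatcTGCATTCtatttctcat
Of 19128 genes with an annotated 3′ untranslated region, 26% held at least 1 of the 3 words in their longest one, and of the 3545 regions of 500 to 1000 bases, 13.7% did.

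Genes that act on the MCM ring were read from lists of its partners. Of 9 origin licensing genes, 7 rose and none fell in rABS against Parental, where 29.9% of tested genes rose. CDC6, which acts with the origin complex in loading the hexamer, had a log2 fold change of 2.08. GMNN, encoding the licensing inhibitor geminin, had 1.96, and the origin recognition genes ORC6 and ORC1 had 1.57 and 1.32. ORC2 (-0.16) and ORC5 (0.16) did not pass the test. In shAPE1 against shCtrl, 7 of the 9 fell and none rose, where 18.8% of tested genes fell, and those with the lowest adjusted p were CDC6 (-1.11), GMNN (-1.02), ORC6 (-0.82) and ORC1 (-0.56). The median of the list was 0.72 in rABS against Parental and -0.56 in shAPE1 against shCtrl.

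The genes that turn the loaded ring into a moving helicase were lower in shAPE1 than in shCtrl with 12 of 12 called, where 18.8% of tested genes were called lower. CDC45, the ring's partner in the active helicase, was at 9.83 CPM in shAPE1 and 22.5 CPM in shCtrl cells (log2 fold change -1.19). GINS3 (-0.95), the kinase gene CDC7 (-1.10) and DONSON (-1.07), whose protein brings GINS to the ring, had the next lowest adjusted p values. In rABS against Parental, 11 of the 12 were higher, where 29.9% of tested genes were. Log2 fold changes there put GINS2 at 2.67, GINS1 at 2.58, RECQL4 at 2.05 and GINS3 at 1.41. DBF4, which encodes the activating partner of CDC7, was the exception there, at 65.4 CPM in rABS and 63.0 CPM in Parental cells (edgeR adjusted p = 0.762). It nevertheless fell in shAPE1, to 44.1 CPM against 65.4 CPM in shCtrl cells (log2 fold change -0.57).

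All 8 genes of fork partners rose in rABS against Parental, where 29.9% of tested genes rose, and all 8 fell in shAPE1 against shCtrl, where 18.8% did. CLSPN, the checkpoint mediator claspin, rose by 2.68, TONSL by 2.46, TIMELESS by 1.31 and WDHD1 by 1.05 on the log2 scale. In shAPE1, MMS22L fell by 1.55, TIMELESS by 1.23, CLSPN by 1.09 and WDHD1 by 0.97. The products of TONSL and MMS22L work as a complex at stressed forks, and TONSL itself was at 53.9 CPM in shAPE1 and 76.9 CPM in shCtrl cells, a log2 fold change of -0.52.

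Genes for removal of the ring after replication were mixed in direction. Of 6, 4 rose and 1 fell in rABS against Parental, where 29.9% of tested genes rose and 29.9% fell. In shAPE1 against shCtrl, 1 rose and 3 fell, where 17.8% of tested genes rose and 18.8% fell, so the counts against the list's main direction were no larger than the share over all genes. VCP, the segregase that pulls the ring from DNA, was higher in both, with log2 fold changes of 0.71 in rABS against Parental and 0.31 in shAPE1 against shCtrl. Its adaptor gene UBXN7 was lower in both, at -0.29 and -0.81. LRR1, a ubiquitin ligase subunit for the ring, was at 0.91 and -0.65, and TRAIP at 0.56 and -0.49. Of 4 genes of MCM binders and relatives, 3 rose in rABS and 2 fell in shAPE1, with none called in the opposite direction. MCMBP, which binds free MCM subunits, rose in rABS (0.91) and missed the threshold in shAPE1 against shCtrl (-0.19; edgeR adjusted p = 0.0524). HROB, which loads MCM8 and MCM9 in recombination, had 0.56 in rABS against Parental and -0.43 in shAPE1 against shCtrl. MCM3AP changed by 0.29 in rABS and did not pass in shAPE1 (-0.07). MCMDC2, a relative with roles in meiosis, was at 1.32 CPM in shAPE1 and 2.49 CPM in shCtrl cells.

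**Figure D4:**
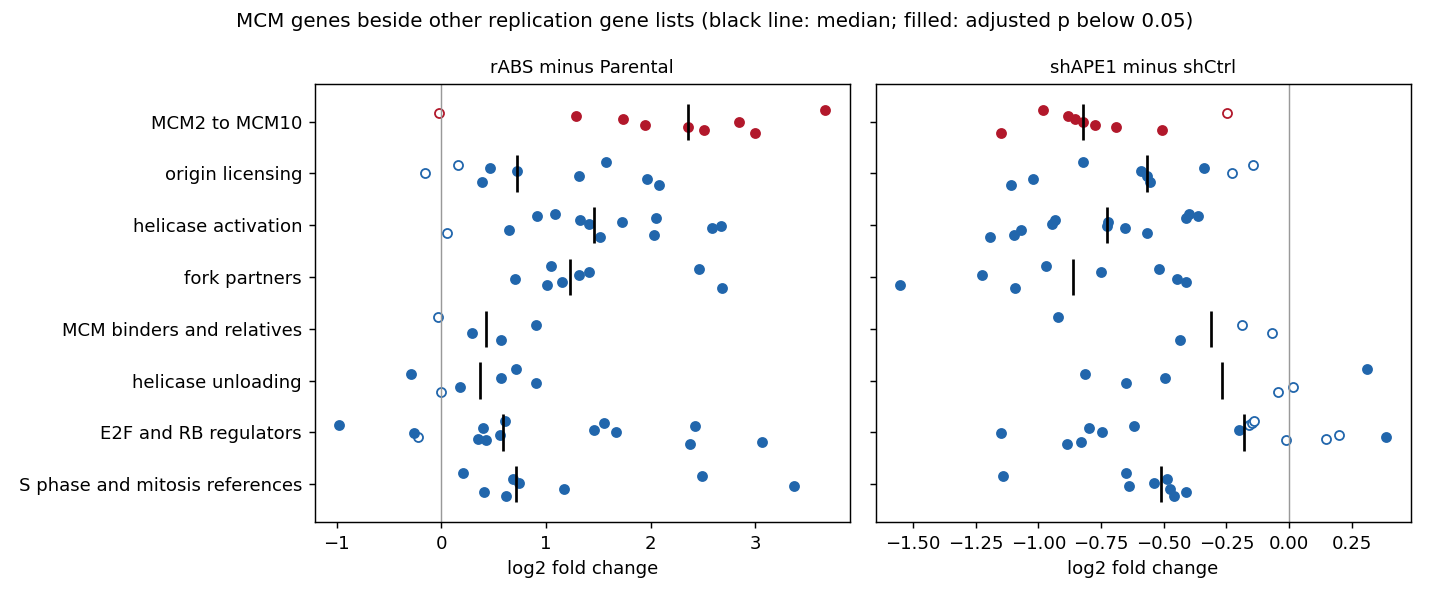
Log2 fold changes of the MCM genes (red) and of 7 other gene lists (blue) in rABS minus Parental and shAPE1 minus shCtrl; each point is a gene, open points did not pass an adjusted p of 0.05 and black lines are list medians. The MCM median is 2.35 in the left panel and -0.82 in the right one, beside 1.46 and -0.72 for helicase activation genes and 0.59 and -0.18 for E2F and RB regulators.

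Regulators of the E2F and RB families split by member. In rABS against Parental, 11 of 14 rose and 2 fell, where 29.9% of tested genes rose and 29.9% fell. Activator E2F2 had a log2 fold change of 3.06, the pocket protein gene RBL1 2.42, E2F1 2.38 and the dimer partner TFDP1 1.55. RBL2, another of the pocket protein genes, fell by 0.98 and the repressor E2F7 fell by 0.27, and E2F5 did not pass the test (-0.23). In shAPE1 against shCtrl, 7 of 14 fell and 1 rose, where 18.8% of tested genes fell and 17.8% rose. E2F7 fell by 1.15, E2F1 by 0.89, RB1 by 0.80 and E2F8 by 0.75 on the log2 scale, while E2F5 rose by 0.39 and E2F3 was at -0.01. Of 8 reference genes of S phase and mitosis, 8 rose in rABS, where 29.9% of tested genes rose, and 8 fell in shAPE1, where 18.8% fell. MKI67, a general marker of cycling cells, was at 735.1 CPM in shAPE1, 1029 CPM in shCtrl, 1092 CPM in rABS and 679.4 CPM in Parental cells. Its log2 fold change was 0.69 in rABS against Parental and -0.48 in shAPE1 against shCtrl. PCNA had 2.49 and -1.14 in these comparisons, the cyclin genes CCNE2 3.37 and -0.64 and CCNB1 0.41 and -0.41. The references did not follow the MCM genes in shCtrl against rABS, where 8 of 9 members fell. Of the 8 references, 2 rose and 4 fell there, beside 17.9% and 18.6% of tested genes. CCNB1 (0.39) and CCNA2 (0.25) rose, PCNA (-0.66), CCNE2 (-0.86) and CCNE1 (-0.33) fell, and MKI67 (-0.09) did not pass the test.

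Across the 12 libraries, genes with a pattern close to the mean log2 level of MCM2 to MCM7 included RFC2 (Pearson r = 0.996), TUBB4B, FANCA and E2F1 (r = 0.995). RFC2 encodes a subunit of the clamp loader and FANCA a Fanconi anemia protein. MCM10 was most like WDR76 (r = 0.995), JCAD, UBAP2L, LDHA and FAM111B. MCM8 was most like SSX2IP (r = 0.992), ATAD2, ZNF326, DSN1 and ATAD5. MCM9 was most like STAM2 (r = 0.972), BTAF1, IFNAR1, RAB21 and ZDHHC6. Within the family, pairs among MCM2 to MCM8 and MCM10 had r between 0.833 and 0.994, and MCM9 had r between -0.103 and 0.448 with them. These points share libraries, scaling and the 4 groups, so each r is a description of the group pattern.

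Several members lie head to head with another gene. MCM4 starts 2 bases from PRKDC, whose product is the end-joining kinase DNA-PKcs, on the other strand. PRKDC was at 210.4 ± 8.89 CPM in shAPE1, 675.8 ± 43.0 CPM in shCtrl, 810.7 ± 51.2 CPM in rABS and 574.7 ± 32.0 CPM in Parental cells (SD, n = 3 each). The pair moved the same way in unequal amounts: PRKDC had a log2 fold change of 0.50 in rABS against Parental where MCM4 had 2.35, and -1.68 in shAPE1 against shCtrl where MCM4 had -0.69. In shAPE1 against Parental they parted, with PRKDC at -1.45 and MCM4 at 1.10. MCM8 starts 94 bases from TRMT6, a gene for a transfer RNA methyltransferase subunit, which rose by 1.02 in rABS and did not pass the test in shAPE1 against shCtrl (-0.24; edgeR adjusted p = 0.0973).

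The neighbours of MCM2 and MCM7 overlap them and differed less between the groups. TPRA1, which overlaps the start of MCM2, was at 49.0 ± 6.15 CPM in shAPE1, 40.2 ± 1.83 CPM in shCtrl, 42.5 ± 4.54 CPM in rABS and 51.6 ± 5.32 CPM in Parental cells. AP4M1, which overlaps the start of MCM7, was at 26.8 ± 0.0826 CPM in shAPE1, 22.4 ± 1.57 CPM in shCtrl, 31.6 ± 1.63 CPM in rABS and 27.7 ± 2.77 CPM in Parental cells. Both were higher in shAPE1 than in shCtrl, by 0.28 and 0.26 on the log2 scale (edgeR adjusted p = 0.0204 and 0.0352). ASF1A, a histone chaperone gene, lies inside MCM9 on the other strand, with log2 fold changes of -0.13 in rABS against Parental and 0.05 in shAPE1 against shCtrl that did not pass the test. No source used here states whether strand was used in counting, so reads in overlapping exons may be counted for either gene or for neither.

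**Figure D5:**
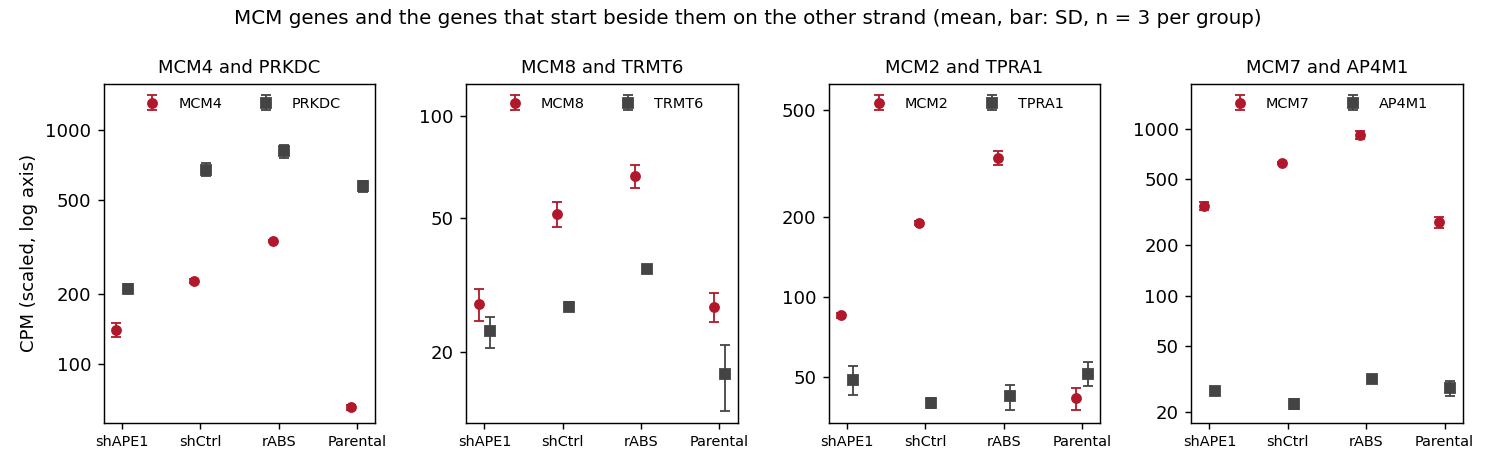
Group means of 4 MCM genes (red circles) and of the genes that start beside them on the other strand (dark squares) in CPM on log axes; bars are SD (n = 3). PRKDC is lowest in shAPE1 cells at 210.4 CPM whereas MCM4 is lowest in Parental cells at 65.7 CPM, and TPRA1 is highest in Parental cells at 51.6 CPM, where MCM2 is lowest at 41.7 CPM.

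MCM7 also hosts a cluster of microRNAs. Their mature sequences from RefSeq are shown with the seed in capitals, because miR-106b-5p and miR-93-5p share the seed AAAGUGC and miR-25-3p has another one.
miR-106b-5p: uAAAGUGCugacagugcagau
miR-93-5p: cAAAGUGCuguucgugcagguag
miR-25-3p: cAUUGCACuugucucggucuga
Over the 12 libraries, the matrix lists 123 counts for MIR25, 55 for MIR106B and 30 for MIR93. Libraries of polyadenylated RNA do not capture mature microRNAs, so these counts are not levels of the mature products. Of the 3, MIR25 passed the filter, at 0.334 CPM in shAPE1, 0.562 CPM in shCtrl, 1.19 CPM in rABS and 0.1 CPM in Parental cells.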

How the data were processed

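RNA of 12 OE33 libraries, 3 in each of 4 groups, was analysed. The authors deposited counts, as whole numbers for each Ensembl gene with no normalization. Per the submitters' processing notes, Trimmomatic 0.36, STAR 2.5.2b and featureCounts of Subread 1.5.2 were used with GRCh38. No source used here states the annotation release, whether strand was used or how multiply mapped reads were treated. Genes were kept by filterByExpr of edgeR (minimum count 10, minimum total count 15), scaled by TMM and fitted with a robust quasi-likelihood model to the 12 libraries in R 4.3.3 with edgeR 4.0.16 and limma 3.58.1, with p-values adjusted by Benjamini-Hochberg over all 15805 genes in each of 5 comparisons. Standard errors are the log2 fold change divided by the square root of its F statistic. CPM uses scaled library sizes, for the marker sums too. Log2 CPM for likeness used a prior count of 2. Positions and lengths came from GENCODE 29, promoters and microRNAs from RefSeq. Neighbours overlap a member or start within 1000 bases of its start.

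The members, the partner lists and the tests were chosen with earlier results of these data known. Named were the 9 members, APEX1, PCNA and MKI67, up to 4 genes per list and comparison by adjusted p, genes against their list's direction, and 5 genes most like each profile, of which 1 is not reported here; ORC2, ORC5, DBF4, TONSL, E2F3 and CCNB1 were added in places after their values were seen. The fit was tested on simulated data. Alternatives were RLE and upper-quartile scaling, DESeq2 1.42.0, limma-voom, no filter, a filter of 1 CPM in 3 libraries, 6 libraries alone, a replicate block, each library left out, and other transcript lengths.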

Additional observations from a re-analysis of the deposited data

How the results depend on the processing

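The 9 members kept their direction and their side of the threshold in the 5 comparisons under RLE scaling, upper-quartile scaling, DESeq2, limma-voom, both filters, the fit to 6 libraries alone and the replicate block (360 values). Of 270 values with 1 library left out, 5 differed. MCM8 in shAPE1 against Parental ranged from a log2 fold change of -0.064 (without shAPE1 replicate 1) to 0.11 and was also negative, at -0.022, without Parental replicate 3. MCM9 in rABS against Parental ranged from -0.066 to 0.059 (without Parental replicate 2) and was also positive, at 0.0078, without rABS replicate 2. Neither of these passed the test in any setting. MCM9 in shAPE1 against Parental was -0.29 without Parental replicate 2 (edgeR adjusted p 0.067), which left 7 members called there in place of 8. Raw counts of Parental replicate 2 differed more from replicates 1 and 3 (chi-square per degree of freedom 12.3 and 12.8) than those from each other (5.54). Replicate 2 of shAPE1 and of rABS stood apart in the same way. The cause of the MCM9 difference was not tested. Counts of genes called stayed within 1.5 times, for instance 4779 to 5290 for shAPE1 against shCtrl with 1 library left out, beside 5784. The share of MCM7 moved to 44.7% in shAPE1, 46.5% in shCtrl and 44.9% in rABS cells with the longest transcript, and to 39.8%, 41.5%, 39.9% and, in Parental cells, 52.5% without a length correction. With the principal transcript, a choice made after seeing the data, it was 44.8% in shAPE1, 46.5% in shCtrl and 44.9% in rABS cells. With 1 library left out it ran from 42.6% to 43.4% in shAPE1, 44.5% to 45.3% in shCtrl, 43.0% to 43.7% in rABS and 56.5% to 57.9% in Parental cells.

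Replicate numbers did not pair the libraries, since same-numbered deviations from the group means correlated at -0.167 to 0.0673. The replicate block gave 9266 calls for rABS against Parental in place of 9454, and 5485 for shAPE1 against shCtrl in place of 5784, with 8 of 9 members called in each. Depth limits the values that rest on few counts, such as MCM10 in Parental cells (67 to 144 counts), MCMDC2, CCNE2 and the microRNA genes, and 3 libraries a group limit subunit shares to descriptions.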
